A study of Mus musculus with 8 samples.

Results

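The TNF superfamily ligands and receptors were examined in tumours of the mouse colon carcinoma line CT26, by the gene symbols Tnfsf and Tnfrsf followed by a number and by a fixed set of family members with other symbols (Tnf, Lta, Ltb, Ltbr, Fas, Fasl, Cd27, Cd40, Cd40lg, Cd70, Ngfr and Edar). The rule found 33 of the 14133 genes of the deposited table. They are 11 ligand genes, 21 receptor genes and 1 opposite-strand transcript, Tnfsf13os. The control group is 4 subcutaneous CT26 tumours of mice given PBS, and the propranolol group is 4 such tumours of mice injected daily into the peritoneum with propranolol, a blocker of beta-adrenergic receptors. All mice were male and of the strain that the labels spell BABL/C, and every sample carries the genotype label WT. The titles number 4 tumours a group, whereas the series' design text speaks of duplicates; if some of the 4 share a source, each n = 4, SD, SE and p below may understate the error. The labels state no age, dose or collection day. They also do not tie a numbered tumour to an animal of its own, and all p-values therefore measure only how these samples spread. A tumour grown from 1 cell line also holds host immune and stromal cells, and in such bulk samples fewer cells of a type and less RNA per cell cannot be told apart.

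Ligands of the family are mostly trimeric membrane proteins, some of them shed, that cluster their receptors on a neighbouring cell. Receptors with a death domain, such as Fas, can assemble a caspase-activating complex. Many others bind TRAF adaptors and signal to the transcription factor NF-kB, as TNFR1 also does, and some are decoys that do not signal this way. Several members, among them CD27, OX40 and CD137, are costimulatory receptors of T cells, and others act on B cells, dendritic cells, bone or epithelium.

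Total counts per library lay between 15483409 and 17511937. CPM below are counts scaled to edgeR's TMM-adjusted library totals. All 16 T cell markers are in the table. Their summed level was 75.9, 40.5, 22.5 and 68.9 CPM in control 1 to 4 and 231, 70.9, 12.9 and 286 CPM in propranolol 1 to 4. Propranolol 1 and 4 thus stood far above, and propranolol 3 below, every control tumour. Of 8 epithelial markers, Krt8, Krt18, Cdh1 and Krt20 are in the table, with a sum of 71.9 to 185 CPM, and the others, Epcam among them, are not analysed here. Control 4 also carried skeletal muscle transcripts, whose 8 markers summed to 815 CPM there, to 80.6 CPM in propranolol 1 and to at most 20.8 CPM elsewhere.

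On average, the ligand genes of the TNF, Fas and TRAIL axes and the receptor genes Cd27, Cd40, Fas and Tnfrsf14 stood higher in propranolol tumours, by less than the SD among the propranolol tumours. The levels of the most abundant receptors, Tnfrsf12a, Tnfrsf1a and Ltbr, differed little between the groups. None of the 32 tested members passed: with edgeR's quasi-likelihood test 0 members and 0.0% of 14006 genes had an adjusted p under 0.05. At an unadjusted p under 0.05, 1 member was called, Tnfrsf1b, against 1.95% of all genes tested, or 1.24% counting only genes higher with propranolol. DESeq2 also gave 0 members and 0.0% of genes past the adjusted threshold, and at an unadjusted p under 0.05 the same 1 member against 2.38% of genes. A share of 1 member in 32 is near these backgrounds. With the replicate number as a block, 0 members passed at the adjusted threshold (0.0% of genes), and 4 members, Ltb, Tnfrsf1b, Cd40 and Cd27, had an unadjusted p under 0.05, against 5.12% of genes, or 3.63% counting only those higher with propranolol. No label states that same-numbered tumours are pairs, and the main fit is unpaired. The fitted level was higher with propranolol for 23 members and lower for 9, where 49.4% of all genes tested were higher. The median log2 fold change was 0.19 over the members and -0.0022 over all genes tested. It was 0.53 over the 10 tested ligands, of which 7 were higher, and 0.16 over the 21 receptors, of which 15 were higher. A fitted log2 fold change of at least 1 was found for 5 members, Fasl, Ltb, Cd40, Cd27 and Tnfsf13b, against 1.84% of all genes. In 0 of the 32 did the groups fail to overlap in CPM, against 1.63% of all genes. The authors' deposited table marks 0 of the 33 members as up or down.

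**Figure D1:**
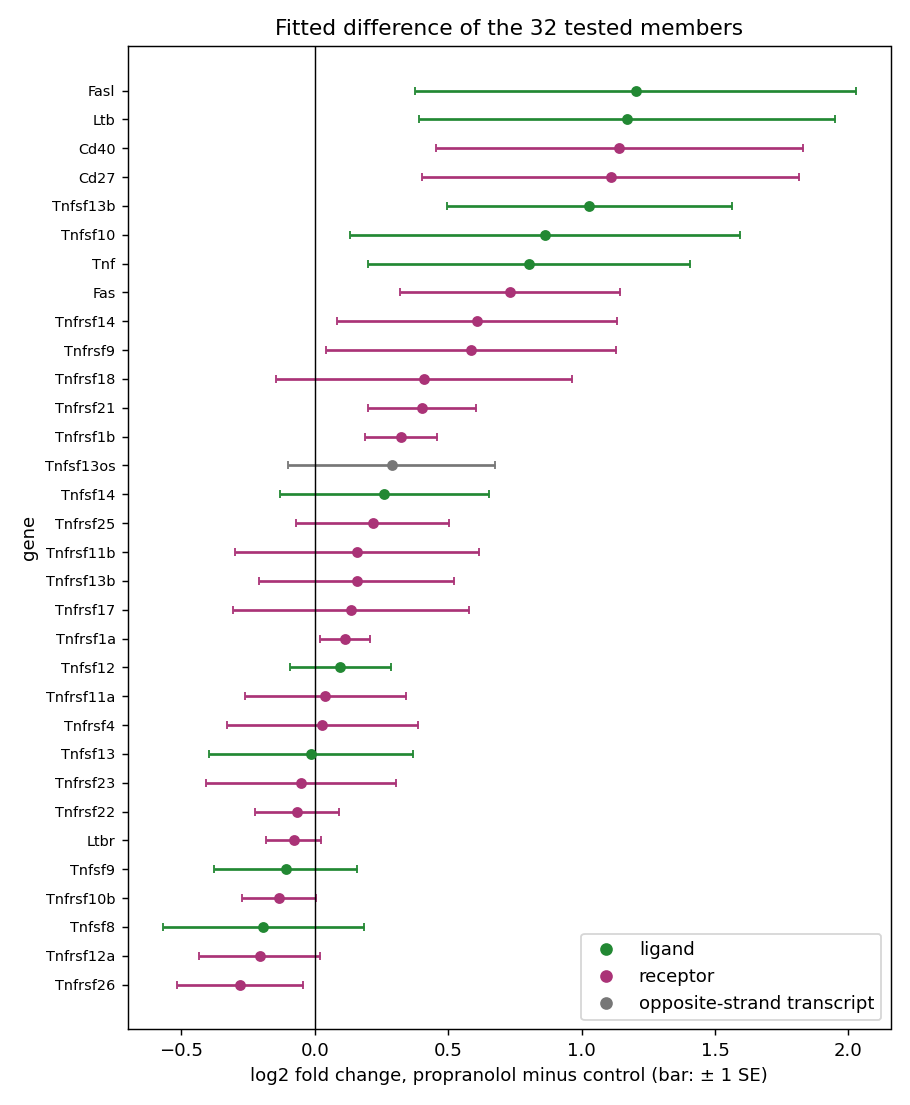
Fitted log2 fold change of propranolol minus control for the 32 tested members (x axis), 1 row per gene, with bars of 1 standard error either side and colours for ligands, receptors and the opposite-strand transcript. Fasl, Ltb, Cd40, Cd27 and Tnfsf13b lie above 1, with wide bars, and Tnfrsf1b at 0.32 has a narrow one.

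One order of the tumours recurred among the members. In 14 of the 32 tested members propranolol 1 and 4 were the 2 highest tumours, as for 10.6% of all genes tested. These are Tnf, Ltb, Fasl, Tnfsf10, Tnfsf12, Tnfsf13b, Tnfrsf1a, Tnfrsf1b, Tnfrsf14, Fas, Tnfrsf21, Cd27, Tnfrsf18 and Cd40. Propranolol 3 was the lowest tumour for 15 members, against 14.1% of genes. The T cell marker sum had the same 2 highest tumours and the same lowest one. So did the sums of macrophage and monocyte, of B and plasma cell and of neutrophil markers (3 of 7 neutrophil markers in the table). The NK and dendritic cell sums were also highest in propranolol 1 and 4. The NK sum was lowest in control 3 and propranolol 3, at 9.67 CPM in each. The dendritic cell sum was lowest in control 3, at 19.6 CPM, next to 21.5 CPM in propranolol 3. The endothelial, fibroblast, epithelial, muscle and erythroid sums did not have propranolol 1 and 4 as their highest tumours. Another 6 members were highest in control 3 or propranolol 3, a smaller share than the 27.6% of all genes, and Tnfrsf9, Tnfsf9, Tnfrsf22, Tnfrsf23 and Tnfrsf12a are among them. Those 2 tumours had the lowest T cell marker sums and the highest epithelial marker sums, 166 and 185 CPM against 71.9 to 120 CPM in the other 6. The part of cell composition in these orders was not tested.

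**Figure D2:**
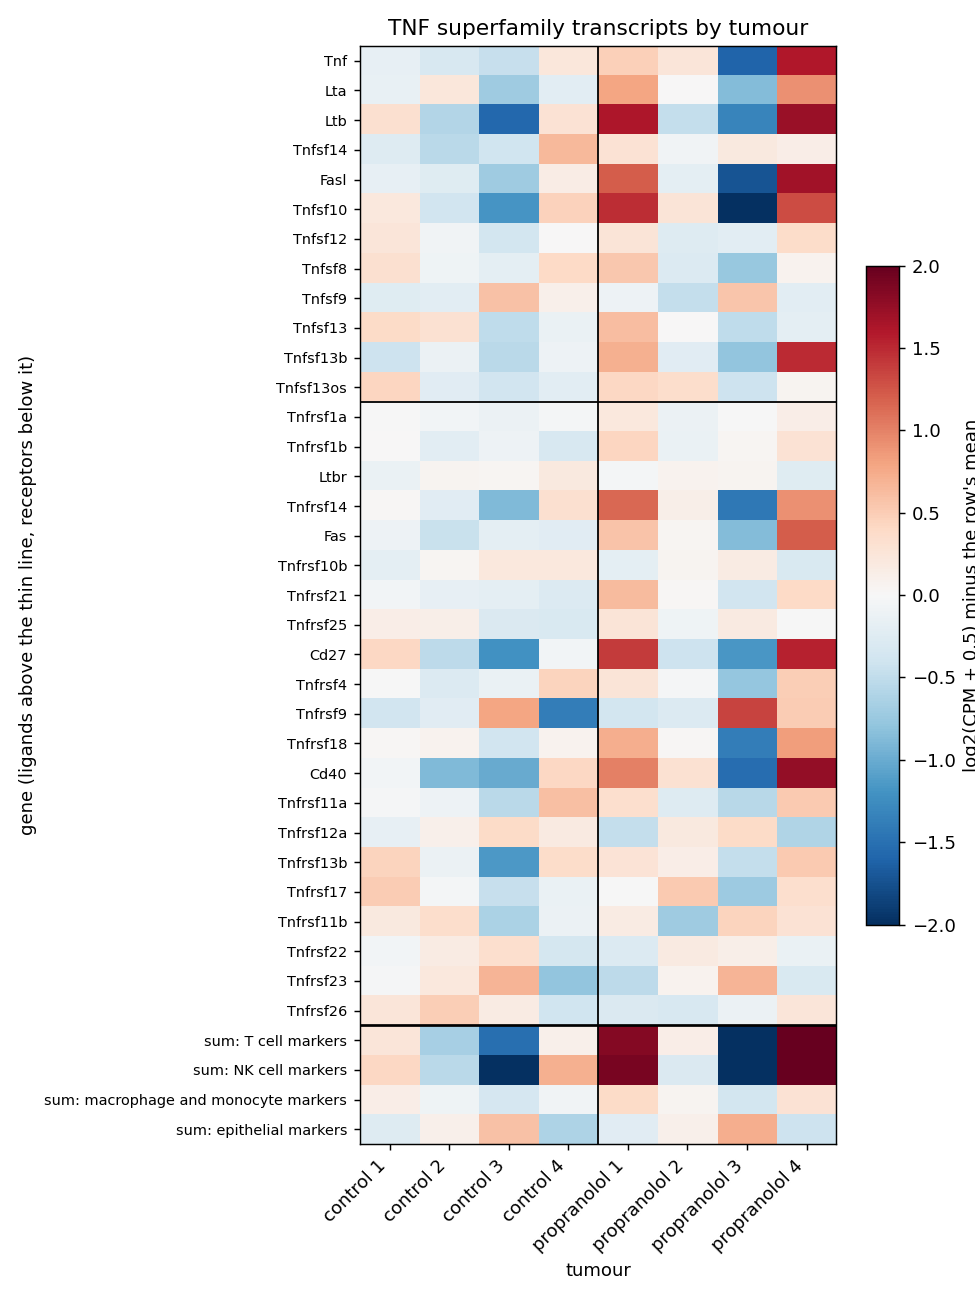
Log2(CPM + 0.5) minus the row's mean (colour) for the 33 members (rows; ligands and Tnfsf13os above the thin line, receptors below it) and for the summed CPM of 4 marker lists, in the 8 tumours (columns). Ltb, Fasl, Tnfsf10, Cd27 and Cd40 are high in propranolol 1 and 4 and low in control 3 and propranolol 3, as the T cell marker sum is, whereas Tnfrsf9 and Tnfrsf23 are high in control 3 and propranolol 3.

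The promoters of the members that shared the first order were read for 3 motifs known from immune genes, since such members could share letters near their starts. Of the 33 members 25 matched the RefSeq promoter table (build GRCm38.p6, which differs from the build named for the counts), with 28 start sites, and 12 of the 14 members above are among the 25. The 250 bases before each start were searched on both strands for a kappaB motif (GGG, any 2 bases, TTTCC), an interferon response motif (GAAA, any 2 bases, GAAA) and the gamma-activated site of STAT factors (TTCNNNGAA). The kappaB motif was found in 3 of the 28 member promoters, against 1.41% of 32851 promoters. The interferon response motif was found in 4, against 2.98%, and the gamma-activated site in 8, against 7.02%. Among the 13 promoters of the 12 members with the shared order, 1 held the kappaB motif, 3 the interferon response motif and 5 the gamma-activated site. The other kappaB matches were in Tnfrsf25 and Tnfrsf9, which did not share that order. The 4 windows below are those of the 12 members that hold a kappaB or an interferon response match, each printed 5′ to 3′ on the gene's strand up to the base before the start, with matches to any of the 3 motifs in capitals. A match is a description of letters and not a bound site.
Ltb (chr17:35194257-35194506, plus strand): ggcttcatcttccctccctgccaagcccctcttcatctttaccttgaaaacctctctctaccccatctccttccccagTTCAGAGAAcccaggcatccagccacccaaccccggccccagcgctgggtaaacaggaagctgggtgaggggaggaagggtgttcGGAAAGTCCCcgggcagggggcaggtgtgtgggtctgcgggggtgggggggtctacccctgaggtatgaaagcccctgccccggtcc
Tnfrsf14 (chr4:154928078-154928327, minus strand): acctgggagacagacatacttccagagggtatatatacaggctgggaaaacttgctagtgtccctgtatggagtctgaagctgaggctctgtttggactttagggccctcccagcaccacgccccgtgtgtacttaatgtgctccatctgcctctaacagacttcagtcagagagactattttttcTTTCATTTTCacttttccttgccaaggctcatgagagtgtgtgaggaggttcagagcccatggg
Tnfrsf1b (chr4:145246871-145247120, minus strand): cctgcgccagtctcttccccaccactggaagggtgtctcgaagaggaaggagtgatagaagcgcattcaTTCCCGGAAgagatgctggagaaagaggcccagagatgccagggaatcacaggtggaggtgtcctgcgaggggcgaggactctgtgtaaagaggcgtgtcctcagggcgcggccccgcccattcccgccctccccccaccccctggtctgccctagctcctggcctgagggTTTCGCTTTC
Tnfsf13b (chr8:10006383-10006632, plus strand): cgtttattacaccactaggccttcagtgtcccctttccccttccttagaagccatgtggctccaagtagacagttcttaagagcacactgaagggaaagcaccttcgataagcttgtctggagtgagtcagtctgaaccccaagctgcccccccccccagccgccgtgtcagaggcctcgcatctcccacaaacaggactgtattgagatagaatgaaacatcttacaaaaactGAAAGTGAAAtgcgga
In Ltb the kappaB match starts 87 bases before the start site and a gamma-activated match 172 bases before it. In Tnfrsf14, Tnfsf13b and Tnfrsf1b the interferon response match starts 64, 16 and 10 bases before the start site, and Tnfrsf1b also has a gamma-activated match at 181 bases. The search found 0 matches to the 3 motifs in the windows of Tnf, Fasl, Tnfsf10, Cd27 and Tnfrsf21.

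Levels per gene length were compared in the authors' FPKM, averaged over all 8 tumours. The receptor Tnfrsf12a, the TWEAK receptor Fn14, was the most abundant member with 125 FPKM, followed by Tnfrsf1a with 61.7 FPKM, Ltbr with 38.3 FPKM and Tnfrsf1b with 35.2 FPKM. The range over tumours of Ltbr (31.97 to 43.93 FPKM) and that of Tnfrsf1b (27.8 to 48.2 FPKM) overlapped, so their order is not fixed by these samples. Ligand genes were lower. Tnfsf12, which encodes TWEAK, led them with 11.1 FPKM, next to Tnfsf9, the CD137 ligand, with 9.72 FPKM and Ltb with 6.72 FPKM. The ranges of Tnfsf12 (8.17 to 14.1 FPKM) and Tnfsf9 (6.716 to 13.97 FPKM) overlapped almost fully. Tnf stood at 3.10 FPKM and Tnfsf13b, the B cell factor BAFF, at 0.337 FPKM (0.130 to 0.921 FPKM). Tnfsf13b had the lowest mean of the members, in a range that overlapped that of Lta (0 to 0.871 FPKM, mean 0.359 FPKM).

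**Figure D3:**
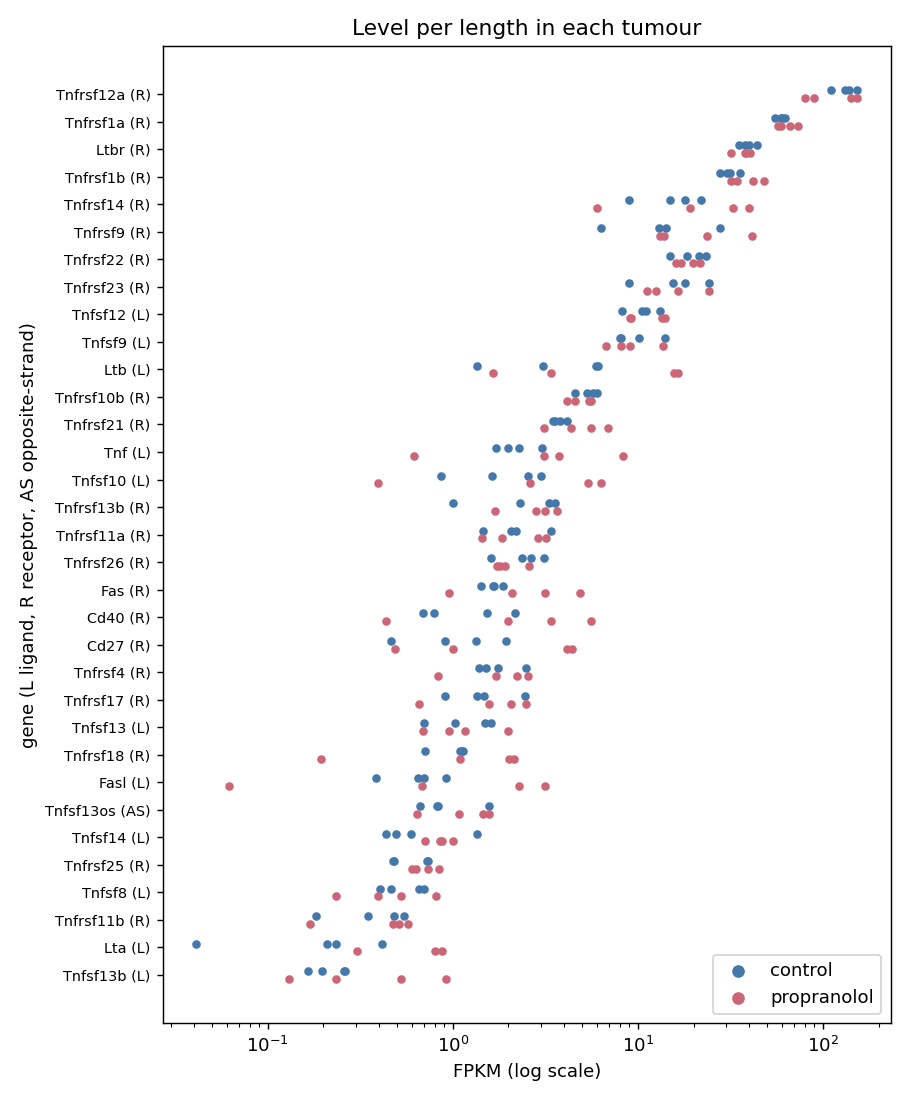
FPKM in each tumour (x axis, log scale) for the 33 members, ordered by their mean, with control tumours in blue and propranolol tumours in red; Lta is listed at 0 in 1 propranolol tumour, which is not drawn. The receptors Tnfrsf12a, Tnfrsf1a, Ltbr and Tnfrsf1b lie at the top with narrow ranges, and Fasl, Tnf and Tnfsf10 spread widely.

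TNF and the lymphotoxins are inflammatory ligands whose genes, Ltb, Tnf and Lta, stand side by side on chromosome 17 (GRCm39, 35413415 to 35424327), with no other gene of the table between them. Tnf, the prototype cytokine of the family, had 3.69, 3.242, 2.89 and 4.94 CPM in control 1 to 4 and 5.98, 5.03, 1.05 and 13.7 CPM in propranolol 1 to 4. In 3 of 4 propranolol tumours it lay above every control, propranolol 2 only just, and propranolol 3 lay below all of them. The means were 3.69 ± 0.898 and 6.45 ± 5.30 CPM (SD, n = 4 each), with a log2 fold change of 0.80 (SE 0.60), or 0.35 with limma-voom and 0.46 with the replicate block. Ltb, whose product joins lymphotoxin alpha in a membrane trimer, had 9.16, 4.66, 2.12 and 8.97 CPM in control and 23.1, 5.09, 2.59 and 25.2 CPM in propranolol tumours. Only propranolol 1 and 4 exceeded the controls, while propranolol 2 and 3 lay within the control range. Its log2 fold change was 1.17 (SE 0.78), and 0.88 (SE 0.26) with the replicate block, an unadjusted p of 0.00875 and an adjusted p of 0.929 by edgeR.

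Lta, lymphotoxin alpha, was close to the limit of these libraries, with 5, 10, 1 and 5 reads in control and 19, 7, 0 and 20 reads in propranolol tumours. It exceeds 1 CPM, the level that every gene of the table reaches in at least 2 libraries, in 2 propranolol tumours and 0 controls, so it is in the table only through the group where it is high. The count of 0 in propranolol 3 allows up to 0.185 CPM (3 reads of its TMM-adjusted total, counting error only). The filter removed Lta from the main test. Without a filter its log2 fold change was 1.11 (SE 0.90, edgeR adjusted p 0.999). Tnfsf14, which encodes LIGHT, a ligand of both the lymphotoxin beta receptor and HVEM, had 1.08, 0.796, 0.943 and 2.47 CPM in control and 1.81, 1.301, 1.66 and 1.58 CPM in propranolol tumours. Control 4, the tumour with muscle transcripts, was the highest of the 8 and the other 3 controls were the lowest. The log2 fold change was 0.26 (SE 0.39) and became 0.75 (SE 0.31) without control 4, with an unadjusted p of 0.0383 and an adjusted p of 0.999 by edgeR.

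The receptors of these ligands had more FPKM than their ligands, and Tnfrsf1a, Tnfrsf1b and Ltbr varied little between tumours. Tnfrsf1b encodes TNFR2, which lacks a death domain and is carried by regulatory T cells and myeloid cells (ENSMUSG00000028599, chromosome 4, 144940033 to 144973440, GRCm39). It had 134, 115, 124 and 106 CPM in control and 179, 121, 136 and 162 CPM in propranolol tumours. In 3 of 4 propranolol tumours it lay above every control, propranolol 3 narrowly, and propranolol 2 lay inside the control range. The means were 119.5 ± 12.07 and 149.5 ± 26.05 CPM (SD, n = 4 each), a log2 fold change of 0.32 (SE 0.14) with an unadjusted p of 0.0381 and an adjusted p of 0.999 by edgeR. The sum of 10 macrophage and monocyte markers was also highest in propranolol 1 and 4, at 2278 and 2123 CPM, against 1386 to 1902 CPM in controls. In propranolol 2 that sum was 1799 CPM, inside the control range. In propranolol 3 it was 1345 CPM, below every control, whereas Tnfrsf1b was above every control there. The part of these cells in the Tnfrsf1b values was not tested. The unadjusted p of Tnfrsf1b was above 0.05 in the fits without control 2, control 3, control 4, propranolol 1 or propranolol 4, where its log2 fold change went as low as 0.22.

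Tnfrsf1a, the death domain receptor TNFR1, had 158.8, 153.3, 147.3 and 155.2 CPM in control and 185.2, 146.5, 158.4 and 174.5 CPM in propranolol tumours. Its log2 fold change was 0.11 (SE 0.095), and propranolol 1 and 4 alone exceeded the controls. Ltbr, the lymphotoxin beta receptor of stromal, epithelial and myeloid cells, had 82.05, 93.11, 92.71 and 102.9 CPM in control and 87.34, 94.08, 93.54 and 75.87 CPM in propranolol tumours. Propranolol 4 was the lowest tumour and control 4 the highest, the groups overlapped, and the log2 fold change was -0.080 (SE 0.10). Thus the membrane lymphotoxin gene Ltb spanned 11.9-fold over the 8 tumours and its receptor gene Ltbr 1.36-fold. Tnfrsf14 encodes HVEM, a partner of LIGHT and of the inhibitory receptor BTLA. It had 25.4, 21.3, 13.3 and 31.4 CPM in control and 55.5, 27.2, 8.93 and 47.6 CPM in propranolol tumours. Propranolol 1 and 4 lay above and propranolol 3 below every control, and the log2 fold change was 0.61 (SE 0.53), or 0.29 without propranolol 1 and 0.93 without propranolol 3. It spanned 6.22-fold over the tumours, more than its ligand gene Tnfsf14 at 3.10-fold.

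**Figure D4:**
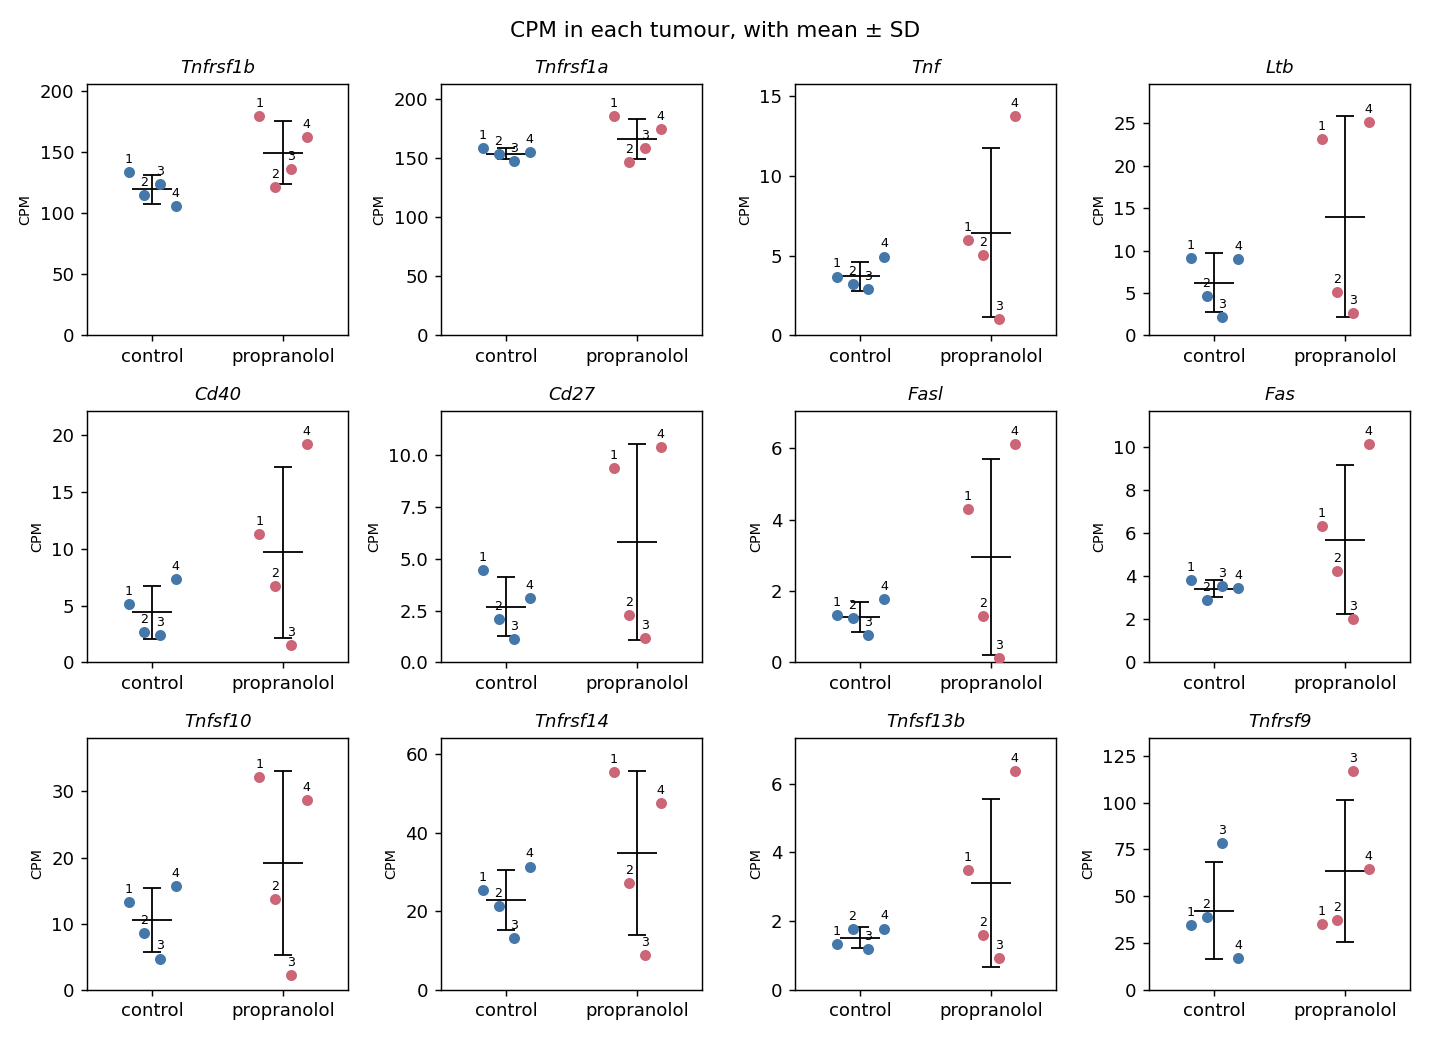
CPM (y axes) of 12 members in each of 4 control tumours (blue) and 4 propranolol tumours (red), with tumour numbers beside the points and lines for mean ± SD. In Tnf, Ltb, Cd40, Cd27, Fasl and Tnfsf10 propranolol 1 and 4 are high and propranolol 3 is at or near the bottom, whereas Tnfrsf9 is highest in propranolol 3.

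The death ligands are weapons of cytotoxic lymphocytes. Fasl, the ligand of Fas on T and NK cells, had 1.34, 1.25, 0.766 and 1.78 CPM in control and 4.29, 1.301, 0.123 and 6.14 CPM in propranolol tumours. Every control lay below propranolol 1 and 4, and propranolol 3, with 2 reads, was lower than all of them. The means of 1.28 ± 0.416 and 2.96 ± 2.75 CPM (SD, n = 4 each) gave the highest fitted log2 fold change of the tested members, 1.20 (SE 0.83), where limma-voom gave 0.30 and the replicate block 0.71. Tnfsf10, which encodes the apoptosis ligand TRAIL and is known to be induced by interferons, had 13.2, 8.59, 4.72 and 15.7 CPM in control and 32.2, 13.7, 2.15 and 28.7 CPM in propranolol tumours. Again propranolol 1 and 4 lay above and propranolol 3 below the controls, with a log2 fold change of 0.86 (SE 0.73), or 0.49 without propranolol 1, 0.55 with the replicate block and 0.45 with limma-voom. NK cell markers, of which 7 of 8 are in the table, summed to 9.67 to 74.6 CPM in control and to 170, 37.1, 9.67 and 204 CPM in propranolol 1 to 4, and their part was not tested.

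Among the death domain receptors, Fas had 3.82, 2.90, 3.54 and 3.45 CPM in control and 6.32, 4.26, 2.03 and 10.1 CPM in propranolol tumours. The controls were close together, 3 of 4 propranolol tumours lay above them and propranolol 3 below. The means were 3.43 ± 0.383 and 5.69 ± 3.45 CPM (SD, n = 4 each) and the log2 fold change 0.73 (SE 0.41). Tnfrsf10b, the death receptor of TRAIL in the mouse, had 24.55, 28.84, 32.42 and 32.66 CPM in control and 24.33, 29.27, 31.65 and 22.72 CPM in propranolol tumours. Its log2 fold change was -0.13 (SE 0.14), and propranolol 1 and 4, where Tnfsf10 was highest, were its 2 lowest tumours. Tnfrsf21, which encodes death receptor DR6, had 16.7, 15.6, 15.1 and 14.3 CPM in control and 27.4, 17.8, 13.3 and 23.0 CPM in propranolol tumours. Here too 3 of 4 propranolol tumours exceeded every control and propranolol 3 was below them, with a log2 fold change of 0.40 (SE 0.20) and an unadjusted p of 0.0765 (edgeR adjusted p 0.999). Tnfrsf25, the receptor DR3 of lymphocytes, was low throughout, at 1.09 to 1.86 CPM.

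The costimulatory receptors did not share 1 order. Cd27, a receptor of naive and memory T cells that binds CD70, had 4.45, 2.104, 1.12 and 3.10 CPM in control and 9.37, 2.31, 1.17 and 10.4 CPM in propranolol tumours. Propranolol 1 and 4 lay above every control and the other 2 inside the control range. The log2 fold change was 1.11 (SE 0.71), and 0.83 (SE 0.32) with the replicate block, an unadjusted p of 0.0282 and an adjusted p of 0.929 by edgeR. Tnfrsf18, the receptor GITR of regulatory and activated T cells, had 1.65, 1.71, 1.12 and 1.72 CPM in control and 2.99, 1.66, 0.308 and 3.28 CPM in propranolol tumours, with a log2 fold change of 0.41 (SE 0.55). That value was 0.0060 with limma-voom, 0.17 with the replicate block, 0.17 without propranolol 1, 0.096 without propranolol 4 and 0.77 without propranolol 3. Tnfrsf4, which encodes OX40, neighbours Tnfrsf18 on chromosome 4 at a distance of 9552 bases, and had 2.353, 1.877, 2.122 and 3.392 CPM in control and 2.936, 2.306, 1.17 and 3.523 CPM in propranolol tumours. The groups overlapped widely. Its log2 fold change of 0.029 (SE 0.36) was close to 0, and its sign turned in 6 of 15 alternative fits.

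Tnfrsf9, which encodes the activation receptor CD137 of T and NK cells, went another way. It had 34.7, 38.6, 78.6 and 17.1 CPM in control and 35.0, 37.4, 117 and 64.5 CPM in propranolol tumours. The highest values were in propranolol 3 and control 3, the 2 tumours with the lowest T cell marker sums, and the log2 fold change was 0.59 (SE 0.54). That value was 0.11 without propranolol 3, 0.32 without control 4 and 1.08 without control 3. With 19.2 FPKM on average its level per length was above that of Cd27 (1.84 FPKM), Tnfrsf4 (1.80 FPKM) and Tnfrsf18 (1.19 FPKM). Tnfsf9, its ligand, which is known on antigen-presenting cells and on some carcinoma cells, had 10.2, 10.5, 18.6 and 13.1 CPM in control and 11.3, 8.57, 18.2 and 10.5 CPM in propranolol tumours. Control 3 and propranolol 3 were again the 2 highest, and the log2 fold change was -0.11 (SE 0.27). Tnfsf8, the CD30 ligand, lay between 0.924 and 2.99 CPM (log2 fold change -0.19, SE 0.38). The ligand genes Cd70, Cd40lg, Tnfsf4 and Tnfsf18 are not analysed here.

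Cd40 encodes the receptor through which helper T cells activate dendritic cells, macrophages and B cells. It had 5.15, 2.67, 2.42 and 7.36 CPM in control and 11.3, 6.74, 1.54 and 19.3 CPM in propranolol tumours. Every control was exceeded by propranolol 1 and 4, propranolol 2 lay inside and propranolol 3 below the control range. The means were 4.40 ± 2.33 and 9.71 ± 7.51 CPM (SD, n = 4 each) and the log2 fold change 1.14 (SE 0.69), or 0.90 (SE 0.33) with the replicate block, an unadjusted p of 0.0245 and an adjusted p of 0.929 by edgeR. The sum of 8 dendritic cell markers was 19.6 to 40.0 CPM in control and 47.3, 28.5, 21.5 and 70.8 CPM in propranolol 1 to 4, and its part in the Cd40 values was not tested.

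Tnfrsf12a, the injury-induced receptor Fn14, had 211, 254, 306 and 267 CPM in control and 169, 270, 307 and 155 CPM in propranolol tumours. Propranolol 1 and 4, the tumours with the most T cell transcripts, were its 2 lowest, and control 3 and propranolol 3 its 2 highest. The log2 fold change was -0.21 (SE 0.23). Its ligand gene Tnfsf12 had 19.78, 15.81, 12.79 and 16.67 CPM in control and 19.93, 13.84, 14.22 and 21.5 CPM in propranolol tumours. The groups overlapped, with propranolol 4 highest and control 3 lowest (log2 fold change 0.096, SE 0.19). Tnfrsf11a, which encodes RANK, the receptor of the osteoclast and dendritic cell factor RANKL, had 13.04, 12.23, 8.959 and 20.24 CPM in control and 16.82, 11, 8.867 and 19.26 CPM in propranolol tumours. The groups covered nearly the same range, with a log2 fold change of 0.039 (SE 0.30). Tnfrsf11b, the secreted decoy osteoprotegerin, had 1.336, 1.536, 0.5305 and 0.9775 CPM in control and 1.298, 0.4731, 1.663 and 1.458 CPM in propranolol tumours, with no separation of the groups.

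Of the B cell survival axis, Tnfsf13b, which encodes BAFF, had 1.34, 1.76, 1.18 and 1.78 CPM in control and 3.5, 1.597, 0.924 and 6.38 CPM in propranolol tumours. All controls lay below propranolol 1 and 4 and above propranolol 3. The log2 fold change was 1.03 (SE 0.53) with an unadjusted p of 0.0837 (edgeR adjusted p 0.999), or 0.68 with limma-voom. Of its receptor genes, Tnfrsf13b and Tnfrsf17 showed no such order, and Tnfrsf13c is not analysed here. Tnfrsf13b, the receptor TACI, had 2.95 to 9.92 CPM in control and 4.99 to 10.5 CPM in propranolol tumours (log2 fold change 0.16, SE 0.37), and Tnfrsf17, the plasma cell receptor BCMA, 0.554 to 2.01 CPM over all tumours. Of 9 B and plasma cell markers 5 are in the table, with sums of 14.03 to 59.34 CPM among controls and 4.56 to 111 CPM with propranolol. Tnfsf13, which encodes APRIL, had 1.17 to 3.16 CPM over all tumours (log2 fold change -0.014, SE 0.38). Its gene and that of Tnfsf12 overlap the opposite-strand transcript Tnfsf13os on chromosome 11, though not each other. Without a stated strand setting, reads in the overlaps with Tnfsf13os cannot be told apart by strand.

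Tnfrsf22, Tnfrsf23 and Tnfrsf26 are mouse receptors whose genes lie next to each other on chromosome 7 (GRCm39, 143161396 to 143239609); the first 2 are known as decoys for TRAIL. Their sequences are related, so reads shared among them may be assigned unevenly. Tnfrsf22 had 62.9 to 101 CPM in control and 66.0 to 90.6 CPM in propranolol tumours. Tnfrsf23 ranged from 35.5 to 99.2 CPM in the controls and from 43.0 to 99.6 CPM with propranolol, with control 3 and propranolol 3 on top of their groups. The decoy genes were thus more abundant per length, at 19.1 and 16.4 FPKM, than the TRAIL death receptor Tnfrsf10b at 5.18 FPKM and the ligand Tnfsf10 at 2.85 FPKM. Tnfrsf26 had the lowest fitted log2 fold change of the tested members, -0.28 (SE 0.24), with 8.396, 10.01, 7.898 and 5.175 CPM in control and 5.646, 5.5, 6.404 and 8.383 CPM in propranolol tumours. The groups overlapped. Neighbouring genes differed in how much they varied: Cd27, Ltbr and Tnfrsf1a lie on chromosome 6 within 125209585 to 125339447 (GRCm39) and spanned 9.28-fold, 1.36-fold and 1.26-fold over the tumours.

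Set against T cell transcripts, part of the family varied less. The sum of Cd3d, Cd3e and Cd3g, chains of the T cell receptor complex, spanned 29.1-fold over the 8 tumours, from 1.97 to 57.3 CPM. For 9 of 32 members with a CPM above 0 in every tumour the ratio to this sum spanned less than the member's own CPM, as it did for 2.58% of 13961 genes. They are Tnf, Ltb, Fasl, Tnfsf10, Tnfsf13b, Tnfrsf14, Cd27, Tnfrsf18 and Cd40. A gene whose own CPM vary little cannot meet this criterion, because the Cd3 sum itself spans 29.1-fold. Both shares thus depend on how many genes vary widely. Their contrast does not measure how closely the members follow Cd3. Cd27 was 35.1% ± 3.30 of the summed Cd3 CPM in control and 30.4% ± 19.5 in propranolol tumours (SD, n = 4 each). It was 24.2, 19.7 and 18.1% in propranolol 1, 2 and 4, below every control (30.6 to 38.0%). In propranolol 3 it was 59.4%, from 19 Cd27 reads over a Cd3 sum of 1.97 CPM. Fasl was 18.8% ± 6.13 in control and 9.79% ± 2.37 in propranolol tumours, and spanned 4.16-fold as a ratio against 49.8-fold in CPM. Both Fasl spans rest on its 2 reads in propranolol 3. The CPM span of Tnfrsf18 rests on its 5 reads in the same tumour. These ratios were chosen after the values were seen and carry no test.

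In the median, the genes of 3 pathway lists differed little between the groups. The lists overlap and hold 77 tested genes together. Tnfaip3 and Birc3, among others, are in both NF-kB lists. Death receptor signalling also takes in the members Fas and Tnfrsf10b. Of 37 tested genes of TNF receptor signalling and NF-kB 29 had a higher and 8 a lower fitted level, where 49.4% of all genes tested were higher. Their median log2 fold change was 0.070. By edgeR 0 of them passed at an adjusted p under 0.05, and 0 had an unadjusted p under 0.05. The smallest p values were those of Rnf31, the catalytic subunit of the linear ubiquitin ligase (log2 fold change 0.38, SE 0.19), Tnfaip3, the NF-kB inhibitor A20 (0.48, SE 0.24) and Traf5, an adaptor of costimulatory receptors (0.22, SE 0.12). Of 22 genes of death receptor signalling 9 were higher and 13 lower in fitted level, with a median of -0.037 and 0 past either threshold. Beside Fas, the smallest p values were those of Apaf1, the scaffold of the apoptosome (-0.11, SE 0.088), and Diablo, an antagonist of apoptosis inhibitors (0.19, SE 0.16). Of 25 tested NF-kB target genes 14 were higher and 11 lower, with a median of 0.086 and again 0 past either threshold. The log2 fold change of Vcam1, an endothelial adhesion molecule, was 0.33 (SE 0.20), that of Birc3, an inhibitor of apoptosis, 0.42 (SE 0.26). Icam1, named after its values were seen, had the largest log2 fold change of the 3 lists, 0.83 (SE 0.55, edgeR unadjusted p 0.167). It had 42.5, 16.4, 7.82 and 41.5 CPM in propranolol 1 to 4, against 8.78 to 22.9 CPM in controls. DESeq2 gave 1 of the genes of the 3 lists an unadjusted p under 0.05 (2.38% of all genes) and edgeR with the replicate block 4 (5.12% of all genes), shares close to or below those of all genes. Eda2r, the receptor of an ectodysplasin isoform, which the name rule does not take in, had a mean of 20.3 ± 2.50 CPM among controls and of 15.1 ± 2.91 CPM with propranolol (SD, n = 4 each), a log2 fold change of -0.43 (SE 0.16) with an unadjusted p of 0.0233 and an adjusted p of 0.999 by edgeR. It is named because it alone of the partner genes had such a p, after its values were seen.

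Single tumours set the size of the differences. Without propranolol 3, the tumour with the fewest T cell transcripts, 11 members had an unadjusted p under 0.05, all of them higher with propranolol, against 7.23% of genes in that fit, or 5.35% counting only those higher, and 0 passed the adjusted threshold. They are Tnfrsf1b, Cd40, Tnfsf13b, Tnfrsf21, Cd27, Fas, Fasl, Tnf, Tnfsf10, Tnfrsf14 and Tnfrsf18. Without propranolol 4 the count of members was 0, in a fit that called 277 genes, near the 273 genes of the main fit. A count of 0 or 1 among the members is near such a background. In that fit the log2 fold change of Tnf went from 0.80 to 0.12, of Fasl to 0.57, of Cd40 to 0.57, of Tnfsf13b to 0.41, of Fas to 0.30, of Cd27 to 0.67 and of Ltb to 0.72. Without propranolol 1, that of Tnfrsf21 went from 0.40 to 0.22.

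**Figure D5:**
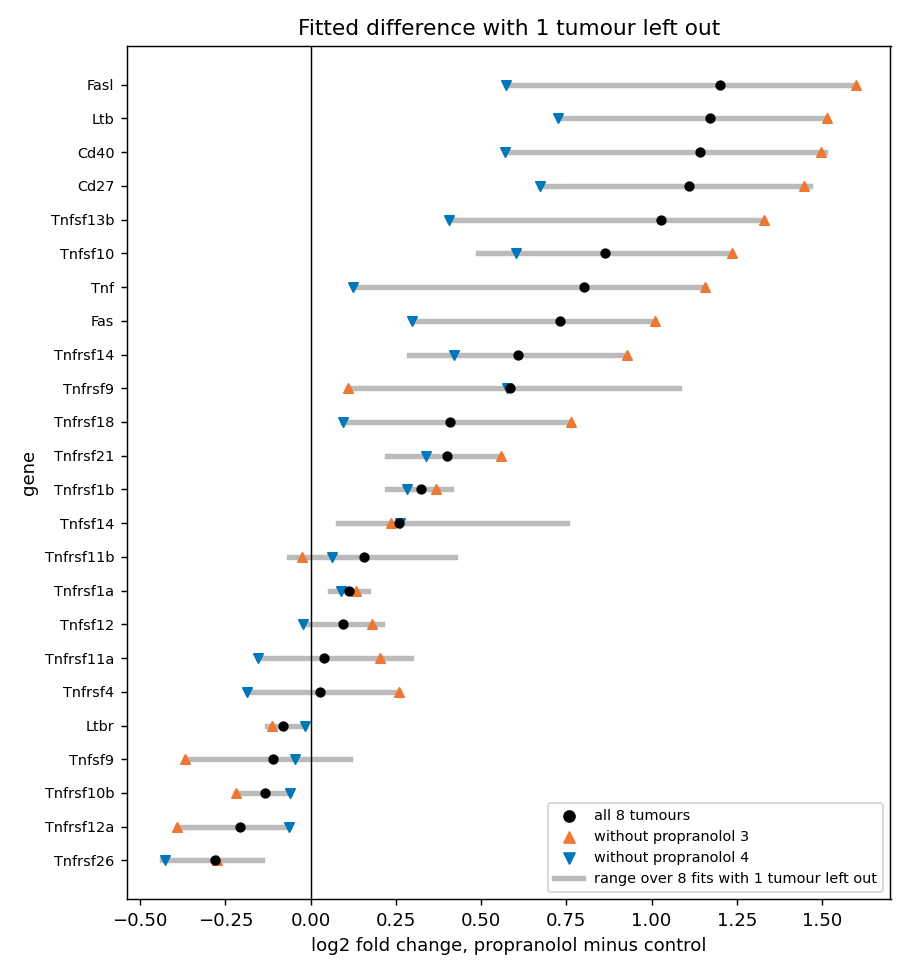
Log2 fold change of propranolol minus control (x axis) for the 24 named members tested, with all 8 tumours (black), without propranolol 3 (upward triangles), without propranolol 4 (downward triangles) and the range over the 8 fits that leave out 1 tumour (grey). Fasl, Ltb, Cd40, Cd27, Tnfsf13b, Tnf and Fas move down without propranolol 4 and up without propranolol 3, and Tnfrsf9 moves down without propranolol 3.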

How the data were processed

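RNA of 8 CT26 tumours was profiled by bulk RNA sequencing. The authors deposited raw read counts and FPKM per gene and tumour, per the file headers, with their own log2 fold changes and p-values. The submitters' processing notes list the build GRCm39 and, without roles, featureCounts 1.6.2, HISAT2 2.1.0, fastp 0.19.3, edgeR 3.24.3, StringTie 1.3.4d and DESeq2 1.22.1; no source states the strand setting. In the counts as deposited, each gene is above 1 CPM in 2 libraries or more.

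Here, edgeR 4.0.16 (R 4.3.3) was fitted to all genes with TMM, filterByExpr (127 genes removed, 14006 tested), robust quasi-likelihood F tests and Benjamini-Hochberg adjustment at 0.05, two-sided. Standard errors were taken from the root of F. FPKM were used only to compare levels between genes. The alternatives were DESeq2 1.42.0, limma-voom (limma 3.58.1), other scalings and filters, a replicate block and leaving out each tumour. Libraries of a group were no copies of each other (chi-square per degree of freedom of at least 12.8 over genes). Same-numbered tumours of the 2 groups had a Pearson r across genes of 0.19, 0.31, 0.51 and 0.28 for numbers 1 to 4. Control 4 with propranolol 1 (0.38) and control 1 with propranolol 4 (0.32) exceeded the same-numbered values of numbers 1 and 4. No label pairs the tumours, and the main fit is unpaired. The replicate block was used only as an alternative fit, and its choice rests on these same counts. Members given in every tumour are the 16 with the smallest p, the 5 ligands and 5 receptors highest in FPKM and fixed ligand and receptor pairs; of each pathway list the 3 smallest p. Members and lists were chosen with earlier results of these data known.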

Additional observations from a re-analysis of the deposited data

Results flagged for a closer look

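In 3 of the 66 sets of 4 tumours examined, 1 tumour stood apart from the other 3 of its group by Dixon's criterion, which chance meets in about 1 of 20 sets. Tnfsf14 reached 2.47 CPM in control 4 and lay between 0.796 and 1.08 CPM in the other controls; control 4 also carried the skeletal muscle transcripts. Tnfsf13os reached 1.72 CPM in control 1 and lay between 0.766 and 0.920 CPM in the other controls. Tnfrsf18 stood at 1.12 CPM in control 3, against 1.65 to 1.72 CPM in the other controls.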

How the results depend on the processing

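Members at an adjusted p under 0.05 numbered 0 in all 15 alternative fits. Members at an unadjusted p under 0.05 numbered 1 with all tumours, 4 with the replicate block and 0 to 11 with 1 tumour left out. Of all genes, 273, 717 and 134 to 1017 had such a p in these fits, with the 11 and the 1017 both from the fit without propranolol 3. The pathway genes at an unadjusted p under 0.05 numbered 0 with all tumours, 1 with DESeq2, 4 with the replicate block and 0 to 8 with 1 tumour left out; the 8 are from the fit without propranolol 3, where 7.23% of all genes were called. The causes were not tested. The median log2 fold change of the members (0.19) lay between 0.092 and 0.34, and 21 to 24 members were higher in fitted level. Of 24 named members 19 kept their sign in every fit. Tnfrsf4 turned to -0.038 with limma-voom, to -0.022 with the replicate block and ran from -0.19 to 0.26 with 1 tumour left out. With 1 tumour left out, Tnfrsf11a ran from -0.15 to 0.29, Tnfrsf11b from -0.062 to 0.42, Tnfsf9 from -0.37 to 0.12 and Tnfsf12 from -0.023 to 0.21. The replicate block changed no adjusted call. Depth limits Lta, with 0 to 20 reads per library, and Fasl in propranolol 3, with 2 reads. It also limits Tnfrsf18 and Tnfrsf17 in propranolol 3, with 5 and 9 reads, and Tnfrsf11b in propranolol 2, with 8 reads.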
